A study of Mus musculus with 12 samples.

Results

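The vascular endothelial growth factor (VEGF) family was followed in whole subcutaneous Renca tumors through 9 genes, defined by name: the ligands Vegfa, Vegfb, Vegfc and Pgf, the receptors Kdr, Flt1 and Flt4, and the coreceptors Nrp1 and Nrp2. These genes and the gene lists below were chosen with earlier results of these data known. All 9 were among the 14496 genes in the deposited table, and all 9 were kept by the filter that left 14008 genes for testing. Renca is a mouse renal carcinoma line, and every tumor here was grown from it under the skin of BALB/C mice and taken at day 14. In 6 tumors of the group labelled IK, another tumor was growing in the kidney at the same time, and in 6 of the group labelled SC it was not. The groups thus share line, strain, site and day, and their labels separate them by the distant tumor. Whether surgery, handling or batch differed as well is not given in the labels. Any such difference could not be told apart from that of the distant tumor. Nothing in the labels ties a tumor to its own mouse, and the p-values below therefore reflect only the spread among these 12 samples, some of which may be technical. The libraries hold RNA of tumor cells and stroma together, and fewer cells of a type cannot be told apart from less RNA per cell.

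VEGF ligands are secreted proteins that drive the growth and leakiness of blood and lymph vessels. VEGF-A acts mainly through Kdr, the main signalling receptor of blood endothelium, while Flt1 binds VEGF-A, VEGF-B and placental growth factor (Pgf) and also exists as a soluble form that traps ligand. VEGF-C acts on Flt4, best known from lymphatic endothelium. The neuropilins Nrp1 and Nrp2 bind VEGF and the class 3 semaphorins, and are found on endothelium, some leukocytes and many tumor cells. In renal carcinoma VEGF-A is a textbook target of the hypoxia-inducible factors. Counts per gene, as used here, do not separate the splice forms of Vegfa or the soluble from the membrane form of Flt1.

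Libraries held 53312559 to 66142468 recovered reads. The epithelial keratin genes Krt8 and Krt18 were at 9.88 to 10.12 and 8.37 to 8.60 log2 CPM (read counts scaled to library size, on the log2 scale), and the endothelial genes Pecam1 and Cdh5 at 5.42 to 6.41 and 5.41 to 6.24. Replicate 6 of the alone group stood apart with a skeletal muscle score (mean log2 CPM over 10 muscle genes) of -1.65 against 3.28 to 5.29 in the other 5. Replicate 2 of the IK group stood apart with a macrophage score of 7.63 against 7.19 to 7.30, and its T cell score of 3.23 was the highest of that group. Of 7 T cell genes, 7 had a lower mean beside an IK tumor (0 past adjustment, limma), with scores of 0.14 to 3.23 there and 0.91 to 3.41 alone.

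The 9 genes spanned a wide range of levels and, once divided by exon length, kept 1 order in all 12 tumors. The order depends on that division: without it Nrp2, at a mean of 8.44 log2 CPM, lay above Vegfa at 7.17. Per kilobase of merged exons, Vegfa was highest at 5.07 ± 0.25 log2 CPM per kb (SD, n = 12), followed by Nrp2 at 4.88 ± 0.10 and Vegfb at 4.29 ± 0.21. Nrp1 at 2.95 ± 0.17, Kdr at 1.96 ± 0.35 and Flt1 at 1.27 ± 0.17 lay in the middle. Flt4 at 0.08 ± 0.19, Vegfc at -0.47 ± 0.36 and Pgf at -1.20 ± 0.23 were lowest. In every neighbouring pair of this order the upper gene exceeded the lower one within each of the 12 libraries. Vegfa and Nrp2 were the closest pair, with a mean within-tumor gap of 0.20 ± 0.18 on the log2 scale, and their ranges over tumors overlapped (4.73 to 5.53 and 4.70 to 5.04). Among tested genes Vegfa stood at percentile 88.2 of level per length, Kdr at 34.2 and Pgf at 4.98. Exon lengths come from a newer annotation than the deposited counts, which touches the order but not any comparison between tumors.

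**Figure D1:**
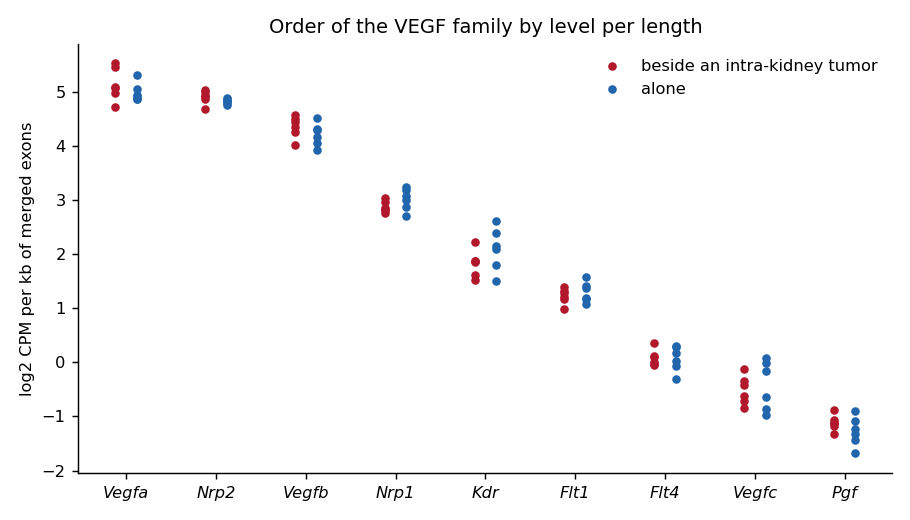
Level of each VEGF family gene per kilobase of merged exons (log2 CPM per kb, vertical axis), 1 point per tumor, red beside an intra-kidney tumor and blue alone, with genes ordered by their mean. Vegfa (5.07) and Nrp2 (4.88) are highest and Pgf (-1.20) is lowest, and the points of both groups overlap for every gene.

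The results below turn on 4 members, Vegfa and Vegfb on one side and Kdr and Nrp1 on the other, whose levels moved in opposite directions between tumors. The 250 bases before their transcription starts are therefore shown (RefSeq, GRCm38.p6, 5′ to 3′ on the gene's strand), with capitals for matches on either strand to GCGTG or ACGTG (cores bound by hypoxia-inducible factors), GGGCGG (the GC box), CGGAAG (an ETS core) or TATAAA (the TATA box). The windows are chr17:46032378-46032627 (minus strand) for Vegfa, at the more upstream of its 2 listed starts (the bases after which were not found in the GENCODE M21 transcripts, unlike those of the other 3), chr19:6987652-6987901 (minus) for Vegfb, chr5:75978456-75978705 (minus) for Kdr and chr8:128358823-128359072 (plus) for Nrp1.
Vegfa: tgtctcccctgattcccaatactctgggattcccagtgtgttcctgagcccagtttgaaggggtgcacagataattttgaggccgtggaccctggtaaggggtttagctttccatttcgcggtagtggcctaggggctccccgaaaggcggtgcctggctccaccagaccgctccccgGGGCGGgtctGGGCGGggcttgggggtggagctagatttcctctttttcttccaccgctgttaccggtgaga
Vegfb: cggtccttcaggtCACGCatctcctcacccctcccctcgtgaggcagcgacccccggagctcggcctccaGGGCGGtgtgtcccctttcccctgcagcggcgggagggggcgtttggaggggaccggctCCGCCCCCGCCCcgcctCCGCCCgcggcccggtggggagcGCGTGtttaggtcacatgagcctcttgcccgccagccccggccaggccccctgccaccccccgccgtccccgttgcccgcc
Kdr: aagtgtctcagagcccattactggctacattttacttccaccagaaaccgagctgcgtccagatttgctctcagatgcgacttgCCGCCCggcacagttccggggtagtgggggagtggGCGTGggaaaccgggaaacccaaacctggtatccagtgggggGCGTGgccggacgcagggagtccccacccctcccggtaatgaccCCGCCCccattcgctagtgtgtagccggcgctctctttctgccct
Nrp1: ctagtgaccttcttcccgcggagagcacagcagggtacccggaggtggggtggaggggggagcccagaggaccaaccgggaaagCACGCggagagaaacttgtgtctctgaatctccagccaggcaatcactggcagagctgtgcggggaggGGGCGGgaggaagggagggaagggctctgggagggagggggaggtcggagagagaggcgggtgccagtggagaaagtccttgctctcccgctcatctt
GGGCGG was present in the window of 9 of the 9 members and in 32.7% of all 32851 listed windows of the same length, and the members' windows had 59.2% to 76.4% GC. The listed windows were not matched to the members' for GC, so the motif shares given here do not set the family apart. GCGTG was present in 6 of 9 members and in 28.2% of windows, with 2 matches each in Vegfb and Kdr, 1 in Nrp1 and 0 in Vegfa. Sequence outside these windows was not searched, so the 0 for Vegfa does not speak to the rest of its promoter. ACGTG and CGGAAG were in 0 of 9 members and in 16.6% and 13.6% of windows. TATAAA was in 1 member, Flt1, 31 bases before the start, and in 12.4% of windows. Matches of different motifs can share end bases, as GGGCGG and CGGAAG can share CGG. Whether any of these matches bears on the members' levels was not tested.

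Between the groups, 0 of the 9 genes passed an adjusted p of 0.05 (limma, Benjamini-Hochberg over 14008 genes), as did 0 genes in all (0%). At an unadjusted p under 0.05, limma gave 0 of 9 members and 1608 genes (11.5%; 5.86% higher and 5.62% lower beside an IK tumor), and limma voom on the recovered reads gave 0 called genes as well, with 1673 at an unadjusted p under 0.05. At that level limma gave 4 members with sample weights, among 3772 genes. It gave 2 without IK replicate 2 (3416 genes), 2 without SC replicate 6 (2919) and 2 with a skeletal muscle covariate (2399). Every other setting gave 0 members. Means were higher beside an IK tumor for 5 members and lower for 4, against 53.3% and 46.7% of all genes. The groups overlapped for every member, as they did for all but 67 genes (0.478%). The median difference over the 9 members was 0.02, that of Flt4, and over all genes it was 0.01. Without replicate 2 of the IK group, 171 genes were called over the table, and 0 of them were members: Vegfa then differed by 0.23 (limma adjusted p = 0.222), Vegfb by 0.21 (0.202), Kdr by -0.35 (0.227) and Nrp1 by -0.17 (0.238). Without replicate 6 of the alone group, Kdr differed by -0.38 (limma adjusted p = 0.202) and Nrp1 by -0.20 (0.198). Other tumors moved the differences toward 0: Vegfa differed by 0.09 without IK replicate 1 and by 0.07 without IK replicate 6, and without SC replicate 5 Vegfb differed by 0.09, Pgf by 0.08, Kdr by -0.16 and Nrp1 by -0.09.

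**Figure D2:**
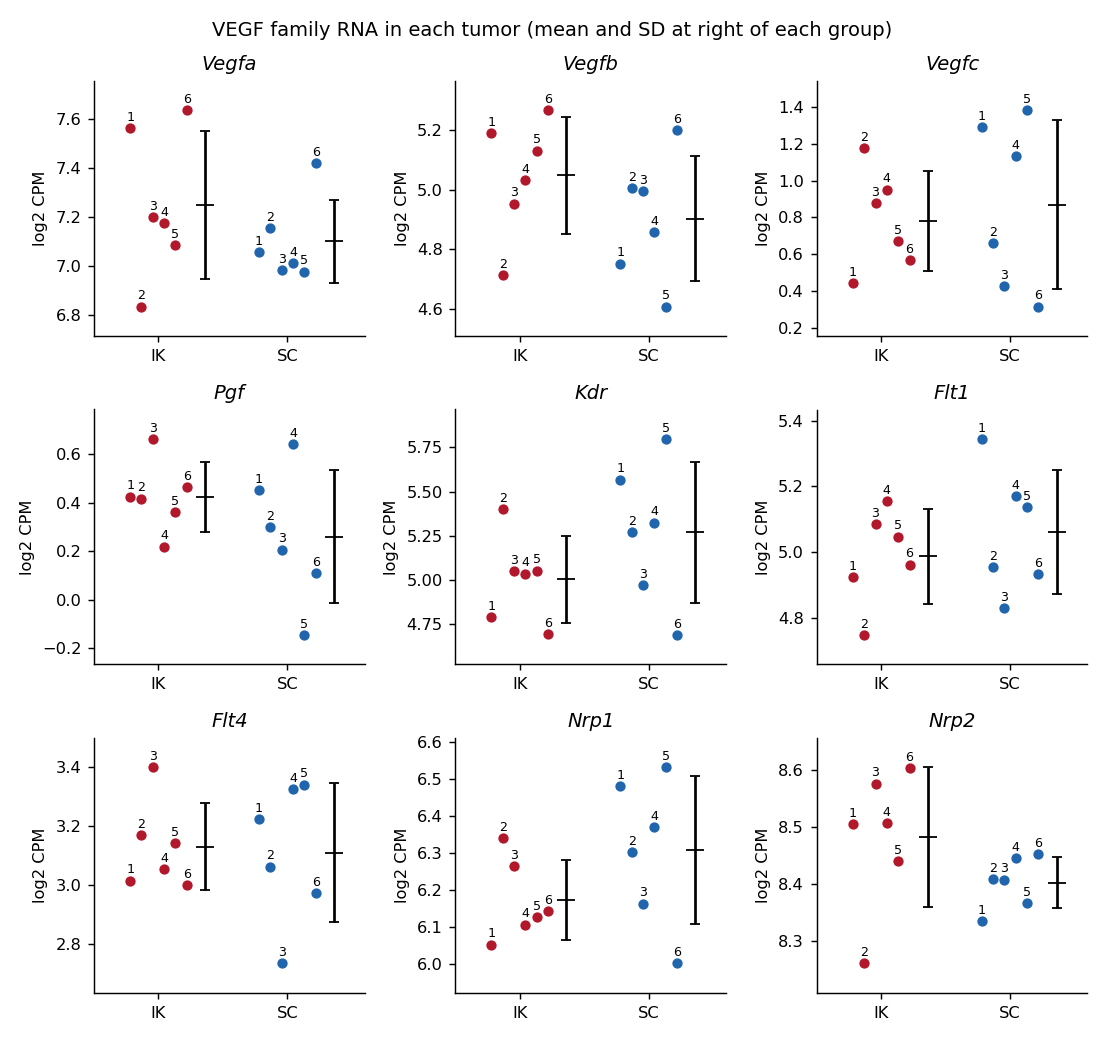
Log2 CPM of each VEGF family gene (vertical axes, separate scales) in the 6 tumors beside an intra-kidney tumor (IK, red) and the 6 alone (SC, blue), numbered by replicate, with the group mean and SD as a black bar. The groups overlap in all 9 panels, and IK replicates 1 and 6 with SC replicate 6 are the 3 highest for Vegfa.

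Among the ligands, Vegfa lay at a lowest, median and highest value of 6.83, 7.19 and 7.63 log2 CPM beside an IK tumor and at 6.98, 7.03 and 7.42 alone. Replicates 1 and 6 of the IK group exceeded every tumor of the alone group, and replicate 2 lay below all of them. The difference of 0.15 (SE 0.13, 95% interval -0.13 to 0.42, n = 6 each) had a limma adjusted p of 0.613. Vegfb, a ligand of Flt1 linked to fatty acid handling and vessel survival, lay at 4.71, 5.08 and 5.27 beside an IK tumor and at 4.61, 4.93 and 5.202 alone. Its difference was also 0.15 (SE 0.11, interval -0.09 to 0.38, limma adjusted p = 0.557). For both genes 5 of 6 tumors of the IK group were above the median of the alone group.

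Vegfc, the lymphatic growth factor, was near the lower end of the table at 0.44, 0.78 and 1.18 log2 CPM beside an IK tumor and 0.32, 0.90 and 1.38 alone. The alone group enclosed the whole IK range, with 2 tumors above it and 2 below. Its difference was -0.09 (SE 0.20, interval -0.53 to 0.36, limma adjusted p = 0.861). With 66 to 165 reads per library, counting error alone gives a log2 SD of 0.14, against observed SDs of 0.27 and 0.46. Pgf had the fewest reads, 57 to 98, and lay at 0.22, 0.42 and 0.66 beside an IK tumor and -0.15, 0.25 and 0.64 alone. Counting error gives Pgf a log2 SD of 0.16 in the IK group and 0.17 in the alone group, close to or below the observed 0.14 and 0.27, so that little of its spread inside the IK group was measurable. The Pgf difference was 0.16 (SE 0.14, interval -0.13 to 0.46, limma adjusted p = 0.602). The remaining ligand of the family, Vegfd, which is outside the 9 genes, lay at 3.66 to 4.36 and 3.45 to 4.38 (limma adjusted p = 0.836).

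Kdr showed the widest spread of the receptors and the largest difference in size of the 9 genes. It lay at 4.69, 5.04 and 5.40 log2 CPM beside an IK tumor and at 4.69, 5.30 and 5.80 alone, a 2.16-fold range inside the alone group. Only replicate 2 of the IK group was above the alone median, while replicates 1 and 5 of the alone group were above every tumor with an IK tumor. The difference of -0.27 (SE 0.17, interval -0.64 to 0.11) had a limma adjusted p of 0.511, or 0.832-fold on the linear scale. Flt1 lay at 4.75, 5.004 and 5.16 and at 4.83, 5.05 and 5.34, with a difference of -0.07 (SE 0.09, interval -0.27 to 0.12, limma adjusted p = 0.719). Flt4 lay at 2.999, 3.10 and 3.40 and at 2.73, 3.14 and 3.34, with a difference of 0.02 (SE 0.11, interval -0.21 to 0.25, limma adjusted p = 0.943). Flt4 was measured while Prox1, Ccl21a, Mmrn1 and Reln, 4 of the 6 listed lymphatic endothelial markers, were not among the genes analysed here. Lyve1, the hyaluronan receptor of lymphatic endothelium and some macrophages, lay at -0.47 to 2.51 log2 CPM, and Pdpn, also made by fibroblasts, at 7.81 to 8.29.

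Nrp1 and Nrp2 leaned in opposite directions. Nrp1 lay at 6.05, 6.14 and 6.34 log2 CPM beside an IK tumor and at 6.00, 6.34 and 6.53 alone, with 3 tumors of the alone group above the whole IK range. Its difference was -0.14 (SE 0.08, interval -0.32 to 0.05, limma adjusted p = 0.499). Nrp2 was the steadiest member, at 8.26, 8.51 and 8.60 beside an IK tumor and 8.34, 8.41 and 8.45 alone, where its SD was 0.04. In 4 of 6 tumors of the IK group Nrp2 exceeded every tumor of the alone group, while replicate 2 was the lowest of all 12. The difference was 0.08 (SE 0.05, interval -0.03 to 0.19, limma adjusted p = 0.514). Beside the lower Kdr and Nrp1, 22 of 24 endothelial genes had a lower mean beside an IK tumor (scores of 3.46 to 3.87 there and 3.37 to 4.08 alone), as had 8 of 9 fibroblast genes (6.97 to 8.27 and 6.99 to 8.61), 9 of 12 mural genes (4.26 to 4.48 and 4.11 to 4.77) and 11 of 14 macrophage genes (7.19 to 7.63 and 7.14 to 7.60), with 0 past adjustment (limma). Score differences were larger for fat cell genes (4 of 4 tested of 9 listed lower, scores of -0.50 to 2.07 and 0.98 to 3.17) and dendritic cell genes (7 of 7 lower, 1.92 to 3.79 and 2.32 to 4.10), also with 0 past adjustment. Their part in the members' differences was not tested. The smallest adjusted p of any member under any setting was 0.0849 (limma), for Nrp2 without replicate 2 of the IK group, where its difference was 0.12.

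**Figure D3:**
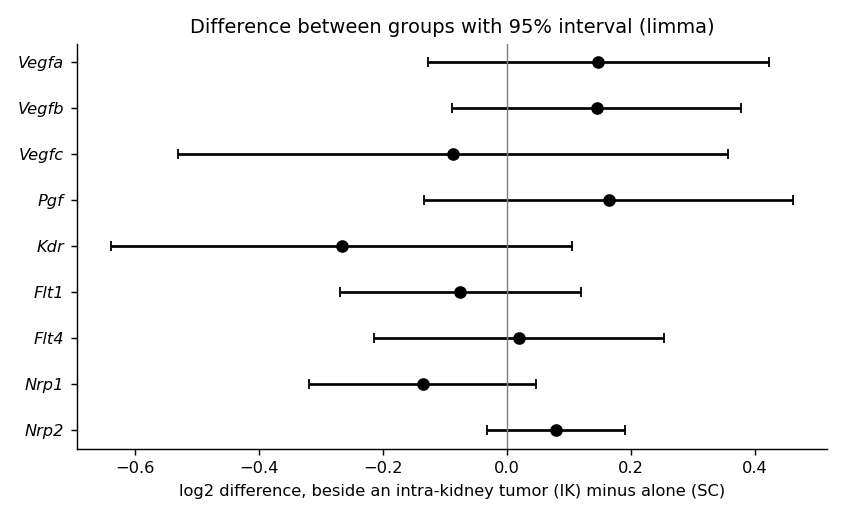
Difference of mean log2 CPM (horizontal axis), tumors beside an intra-kidney tumor minus tumors alone, for each VEGF family gene, with 95% intervals from limma. Every interval includes 0, and Kdr lies farthest from it at -0.27 (-0.64 to 0.11).

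Ratios between members within a library do not depend on how libraries are scaled to each other, and 11 of them were compared by two-sided exact permutation over all assignments of the 12 tumors (smallest possible p = 0.00216), with Benjamini-Hochberg adjustment. None passed 0.05, including the ratio of ligand to receptor and that of receptor to endothelial RNA. Vegfa exceeded Kdr by 2.24 ± 0.55 log2 units beside an IK tumor and by 1.83 ± 0.53 alone (difference 0.41, exact permutation p = 0.201, adjusted p = 0.505). These log2 ratios ranged from 1.43 to 2.94 and from 1.18 to 2.73, so the groups overlapped broadly. Nrp1 against Nrp2 was at -2.31 ± 0.20 and -2.09 ± 0.23 (difference -0.21, exact permutation p = 0.113, adjusted p = 0.505). Flt1 against Kdr was at -0.02 ± 0.33 and -0.21 ± 0.29 (difference 0.19, exact permutation p = 0.297, adjusted p = 0.544). Set against the mean of 24 endothelial genes, Kdr differed by -0.14 (exact permutation p = 0.132), Flt4 by 0.15 (p = 0.141, exact permutation) and Nrp2 by 0.21 (p = 0.229, exact permutation), each with an adjusted p of 0.505. Nrp1 against the same genes was at 2.56 ± 0.10 and 2.57 ± 0.08, a difference of -0.01 (exact permutation p = 0.861).

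While the groups did not separate, 6 of the 9 genes fell into 2 sets that varied in opposite directions from tumor to tumor. Vegfa, Vegfb and Nrp2 were high in the same tumors, with Pearson r of 0.82 (Vegfa with Vegfb), 0.76 (Vegfa with Nrp2) and 0.71 (Vegfb with Nrp2) over 12 tumors. Kdr, Nrp1 and Vegfc formed the opposite set, with r of 0.94 for Kdr with Nrp1, 0.89 for Kdr with Vegfc and 0.88 for Vegfc with Nrp1. Across the sets r ranged from -0.49 for Vegfc with Nrp2 to -0.95 for Vegfb with Kdr. The latter was -0.95 inside the IK group and -0.96 inside the alone group. The sets were drawn from these same correlations. Flt4 had r of 0.61 with Kdr, and 0.50 and 0.77 inside the groups. Flt1 had r of 0.43 with Kdr, but its pairs differed between the groups: inside the IK group r was -0.34 with Kdr and 0.67 with Nrp2, and inside the alone group 0.73 and -0.60, a difference that was not tested. Pgf had r between -0.21 and 0.31 with the other 8. These values describe pairs within the same libraries, which share scaling and tissue makeup, and carry no test.

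**Figure D4:**
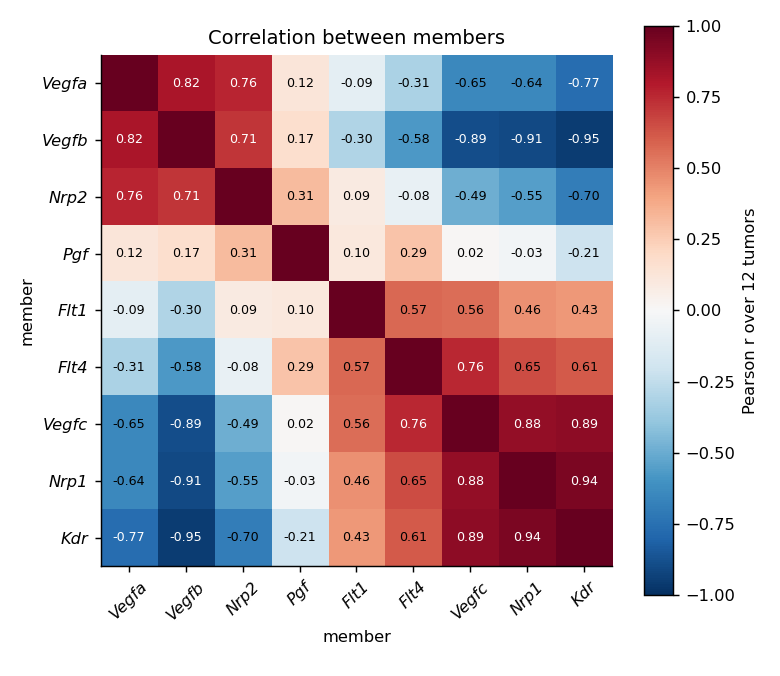
Pearson r of log2 CPM over the 12 tumors for each pair of VEGF family genes (both axes), from -1 in blue to 1 in red. Vegfa, Vegfb and Nrp2 correlate positively among themselves and negatively with Kdr (-0.77, -0.95 and -0.70), while Vegfc, Nrp1 and Kdr correlate at 0.88 to 0.94.

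To place these sets, the members were compared with 4 scores, each the mean log2 CPM of a gene list that holds none of the 9 genes: hypoxia response, endothelial core, macrophage and skeletal muscle. Of 36 relations, 23 had an adjusted p under 0.05 by Pearson and 24 by Spearman, with 21 by both (permutation tests of 100000 resamples, Benjamini-Hochberg over 36). The same relations were not computed for the other tested genes. No background share therefore stands beside these counts, and they are not shown to be particular to the VEGF family. Vegfa rose with the hypoxia response score, whose genes include the glucose transporter Slc2a1 and the peptide gene Adm (r = 0.905, permutation p = 0.00017, adjusted p = 0.00153; rho = 0.790, permutation p = 0.00342, adjusted p = 0.00947). It held inside both groups, at r of 0.959 beside an IK tumor and 0.782 alone, and was 0.692 without replicates 1 and 6 of the IK group, the tumors farthest from the median score. Vegfb rose with the same score (r = 0.790, permutation p = 0.00207, adjusted p = 0.00828; rho = 0.832, permutation p = 0.00144, adjusted p = 0.00648), and r was 0.748 without those tumors. Nrp2 did so at r = 0.707 (permutation p = 0.0101, adjusted p = 0.0242; rho = 0.790, permutation p = 0.00325, adjusted p = 0.00947) and 0.597 without them.

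Kdr ran the other way on hypoxia, at r = -0.819 (permutation p = 0.00096, adjusted p = 0.00494; rho = -0.930, permutation p = 4.0e-05, adjusted p = 0.00072), or -0.873 without the 2 farthest tumors. It followed the endothelial core score most closely (r = 0.948, permutation p = 2.0e-05, adjusted p = 0.00072; rho = 0.965, permutation p = 2.0e-05, adjusted p = 0.00072), with r of 0.902 and 0.963 inside the groups. Without tumors 1 and 5 of the alone group, farthest from the median of that score, r was 0.896. Nrp1 followed it at r = 0.919 (permutation p = 5.0e-05, adjusted p = 0.0009; rho = 0.888, permutation p = 0.00027, adjusted p = 0.00243) and 0.849 without those tumors, and Vegfc at r = 0.880 (permutation p = 0.00026, adjusted p = 0.00187; rho = 0.825, permutation p = 0.0018, adjusted p = 0.00648) and 0.792. Flt4 followed it less tightly, at r = 0.659 (permutation p = 0.0193, adjusted p = 0.0357; rho = 0.769, permutation p = 0.00464, adjusted p = 0.0104), and at 0.560 without those tumors. With quantile normalization it no longer passed (r = 0.380, permutation adjusted p = 0.292). Vegfb ran opposite to the endothelial score at r = -0.913 (permutation p = 0.00011, adjusted p = 0.00132; rho = -0.867, permutation p = 0.0006, adjusted p = 0.0036), and -0.835 without them.

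Flt1 was the receptor that did not pass with any of the 4 scores, with r of 0.377 for the endothelial core (permutation p = 0.226, adjusted p = 0.302; rho = 0.413, permutation p = 0.183, adjusted p = 0.235). Inside the groups r was -0.581 beside an IK tumor and 0.744 alone, a difference that was not tested. Replicate 2 of the IK group combined a high endothelial score of 3.87 with the lowest Flt1 of all 12 tumors, 4.75 log2 CPM. Pgf passed with none of the scores either, at r between -0.170 and 0.160.

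The scores themselves moved together, so that a relation with 1 of them is not particular to it. With the skeletal muscle score r was 0.778 for Nrp1 (permutation adjusted p = 0.00408) and 0.742 for Kdr (0.0122). It was 0.686 for Vegfc (permutation adjusted p = 0.0134) and -0.649 for Vegfb (0.0290), while the other members did not pass with muscle by Pearson. The endothelial score correlated at r of -0.734 with hypoxia, 0.758 with macrophage and 0.758 with muscle over the 12 tumors, and at 0.971 with the fibroblast score, so that endothelial and fibroblast RNA cannot be told apart here. The 6 relations with the macrophage score that had passed all missed 0.05 when that score was taken as a median over its genes. With IK replicate 2 and SC replicate 5 left out, r moved from 0.630 to 0.359 for Vegfc, from 0.686 to 0.454 for Kdr and from -0.627 to -0.297 for Nrp2. When hypoxia response was added to the limma fit as a covariate, the group difference of Vegfa turned from 0.15 to -0.11, that of Vegfb to -0.03 and that of Kdr from -0.27 to 0.03, with adjusted p-values of 0.983 or more in that fit. With the endothelial core score as the covariate instead, Kdr moved from -0.27 to -0.08, Nrp1 from -0.14 to -0.05, Vegfa to 0.05, Vegfb to 0.04 and Vegfc from -0.09 to 0.11 (limma adjusted p-values of 0.694 or more for the 9 genes). Pgf, from 0.16, was at 0.18 and 0.17 with these covariates, and Flt4, from 0.02, at 0.15 and 0.10. The skeletal muscle covariate left Kdr at -0.25 (limma adjusted p = 0.258) and Nrp1 at -0.13 (0.234). Both had an unadjusted p under 0.05 in that fit (limma), as had 2399 of 14008 genes.

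**Figure D5:**
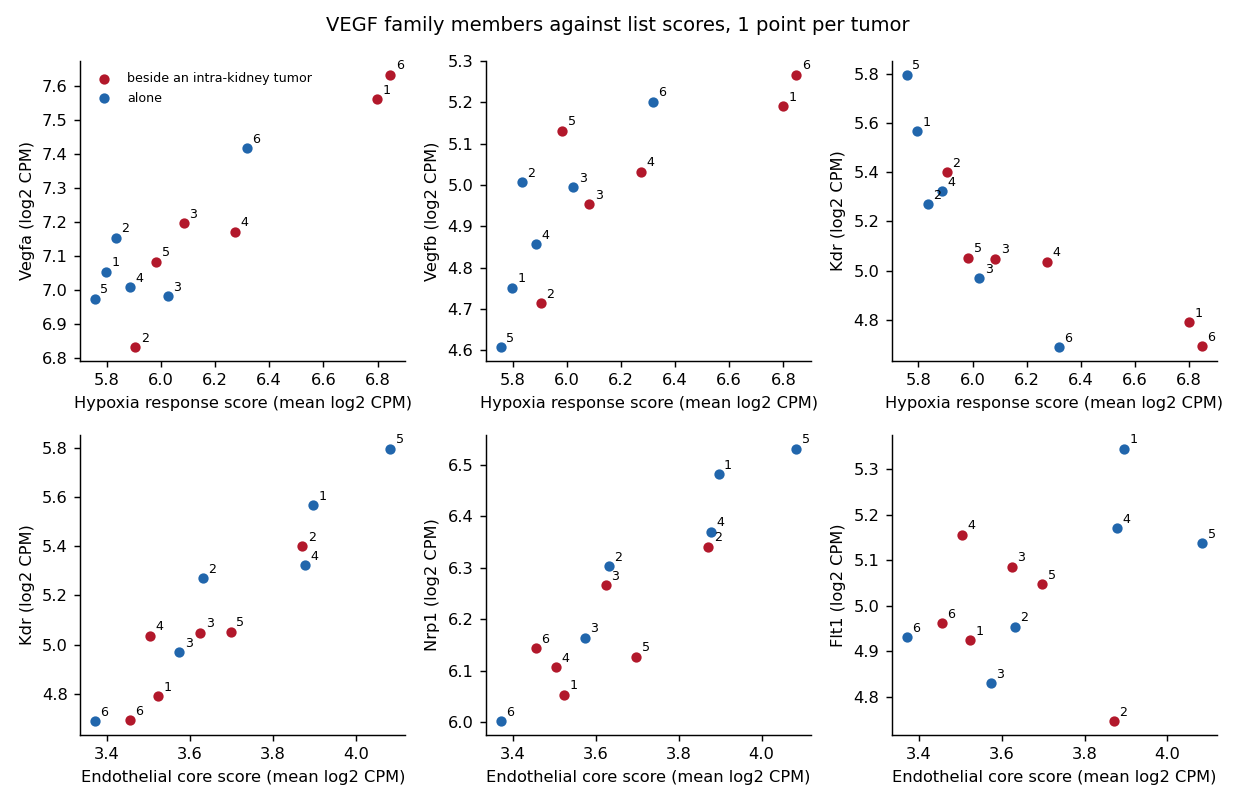
Log2 CPM of Vegfa, Vegfb, Kdr, Nrp1 and Flt1 (vertical axes) against the hypoxia response or endothelial core score (horizontal axes, mean log2 CPM of the list), 1 point per tumor numbered by replicate, red beside an intra-kidney tumor and blue alone. Vegfa rises with hypoxia (r = 0.905), Kdr falls with it (r = -0.819) and rises with the endothelial score (r = 0.948), and Flt1 shows no clear relation (r = 0.377).

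The genes most like each member over the 12 tumors, among all tested genes with a symbol, were ranked by Pearson r and are given as a description. For Kdr the first was Ptprb, the endothelial phosphatase VE-PTP (r = 0.980), followed by Tgfb1i1 (0.979) and the matrix gene Svep1 (0.977). For Nrp1 they were the matrix proteoglycan gene Vcan (0.967), Sec31a (0.966) and the developmental myosin Myh8 (0.965), and for Vegfc the matrix gene Tnc (0.965), Rtl8b (0.954) and Podxl (0.952). Flt1 was most like Cald1 (0.879), the endothelial and mural adhesion gene Mcam (0.834) and the Notch target Heyl (0.834). Vegfa was most like Rcor2 (0.965), Arhgap29 (0.960) and the glycolytic gene Gapdh (0.960), whose reads many near-identical pseudogene copies can share and whose value is therefore uncertain, and Vegfb like Vat1 (0.980), Ubxn6 (0.972) and Mgat4b (0.968). Nrp2 was most like Lmln (0.965), Prep (0.949) and R3hdm1 (0.948), and Flt4 like the interleukin receptor Il1r1 (0.916), ccdc198 (0.910) and St6gal1 (0.900). Pgf had the loosest matches, Dpp8 (0.861), Creb1 (0.831) and Tsnax (0.827).

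Genes around the VEGF pathway were also compared between the groups. In 5 lists with 84 tested of 87 listed genes, 0 were called after adjustment across the whole table by limma, and 2 higher and 3 lower genes, or 5.95%, had an unadjusted p under 0.05, against 11.5% of all tested genes. Of 38 genes that carry the receptor signal, 3 were lower at that level, among them the calcium-regulated transcription factor Nfatc1 (-0.14, SE 0.06, limma unadjusted p = 0.0353) and Sh2d2a, a T cell adaptor that also binds Kdr (-1.30, SE 0.58, limma unadjusted p = 0.043), beside a T cell score lower by -1.32. The median over these 38 was 0.02. Among 12 semaphorins and plexins, which share the neuropilins, 0 had an unadjusted p under 0.05 (median -0.03), and those of smallest p were Plxna3 (-0.14) and Sema3g (0.12).

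Genes known to respond to VEGF in endothelium had a median difference of 0.10 over 13 tested of 14 listed, 7 of them with a higher and 6 with a lower mean. The netrin receptor Unc5b lay at 0.14 (limma unadjusted p = 0.0376, adjusted p = 0.432) and Kcne3 at 0.21 (unadjusted p = 0.125). The tip cell genes Dll4 and Esm1 lay at 0.10 and 0.19, chosen for mention after their values were seen. Aplnr, from the same list, lay at -0.25 (limma unadjusted p = 0.279). In the list for VEGF release, processing and trapping the protease Mmp9 was at 0.27 (limma unadjusted p = 0.0349, adjusted p = 0.432) and the thrombospondin Thbs2, an inhibitor of vessel growth, at -0.41 (unadjusted p = 0.11), with a median of -0.01 over 14 genes. Of the oxygen sensing genes, the prolyl hydroxylase Egln1, itself induced by hypoxia, lay at 0.29 and Hif1a at 0.07, and 6 of 7 had a higher mean. The hypoxia response list had a median of 0.27 over 19 genes, of which 17 had a higher mean beside an IK tumor, against 53.3% of all genes. Its scores overlapped, at 5.91 to 6.85 beside an IK tumor and 5.76 to 6.32 alone. Only replicates 1 and 6 of the IK group, at 6.80 and 6.85, exceeded every tumor of the alone group. Of the 19, 5 were higher with an unadjusted p under 0.05 (limma), against 5.86% of all genes, and 0 passed adjustment. Those of smallest p were Adm (1.25) and Slc2a1 (0.71). This list was chosen with earlier results of these data known, and its 19 genes are not independent counts. Its shares beside those of all genes are therefore a description and not a test.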

How the data were processed

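RNA was measured in 12 whole tumors, 6 in each group. Per the submitters' processing notes, the tools were TopHat 1.4.1 and CASAVA 1.8.2, with HTSeq and limma, on build mm9. Settings, annotation release and strand handling are not given in the sources used here. The authors deposited log2 values in the form of log2 CPM, reads plus 0.5 over a scaled library size. In each column 100% of values were whole reads plus 0.5 times 1 step, within 0.001 of a read, which gave the read totals. Read depth limits precision only for the lowest genes. Every within-group pair of tumors differed beyond counting error (chi-square over its degrees of freedom 13.2 to 164, 30 pairs), so none was counted as a duplicate.

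Symbols were matched by Ensembl identifier to GENCODE M21 names (14004 of 14496 genes), and lengths are merged exons of that release. Apart from 80 bases of Nrp1 shared with a microRNA gene, the members' exons overlap no other gene there. Genes at a log2 value of at least 0 in at least 6 tumors entered a limma fit (version 3.58.1, R 4.3.3; trended empirical Bayes, two-sided, threshold 0.05). The fit was also run on simulated data, with each gene drawn independently. Such data lack the shared variation between genes and the tumors that stand apart, so the run does not speak to either. The members and gene lists were chosen with earlier results of these data known. The text names the 9 members, the 3 genes most like each, and per pathway list the genes past the threshold or else the 2 of smallest p. Other genes named, such as Dll4, Esm1 and Aplnr, fall outside this rule. Alternatives were filters, scalings, variance models, sample weights, voom on recovered reads, a replicate block, 3 score covariates and leaving out each tumor.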

Additional observations from a re-analysis of the deposited data

Results flagged for a closer look

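In 48 groups of 6 values, for the members, their ratios and 4 scores, 4 held a tumor far from the other 5, where chance gives about 1 in 20 groups, and these 4 came from 2 tumors. Replicate 2 of the IK group had a log2 ratio of Flt1 to Kdr of -0.65, against -0.01 to 0.27 in the other 5, and a log2 ratio of Nrp1 to Nrp2 of -1.92, against -2.46 to -2.31. The same tumor had a macrophage score of 7.63, against 7.19 to 7.30. Replicate 6 of the alone group had a skeletal muscle score of -1.65, against 3.28 to 5.29. Without replicate 2 of the IK group the group difference of the Flt1 to Kdr ratio was 0.32, against 0.19 with all tumors and 0.10 without SC replicate 5, and with SC replicate 6 left out that of Kdr was -0.38 (limma adjusted p = 0.202).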

How the results depend on the processing

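Across 25 alternatives 0 members were called (limma), and 213 of 224 member values kept their sign. Over all genes 0 were called, against 1 with no trend, 545 with sample weights and 0 to 171 with single tumors left out, 171 without replicate 2 of the IK group. A replicate block called 0 genes; same-numbered tumors correlated at -0.31 to 0.45 in their deviations and the labels give no pairing, so the numbers were not taken as pairs, and the block changed no call of a ratio. Signs turned for Vegfc with quantile normalization (0.033), with the endothelial covariate (0.11) and with the hypoxia covariate (0.21), for Vegfa (-0.11), Vegfb (-0.034) and Kdr (0.034) with the hypoxia covariate, and for Flt4 with sample weights (-0.0087). With single tumors left out Vegfc ranged from -0.20 to 0.016 and Flt4 from -0.055 to 0.066. Log2 ratio differences with single tumors left out ranged from -0.077 to 0.11 for Pgf to Vegfa (0.19 with quantile normalization), -0.052 to 0.039 for Vegfb to Vegfa (0.024 with it), -0.0040 to 0.15 for Flt1 to endothelial genes and -0.035 to 0.016 for Nrp1 to endothelial genes (-0.071 with it). Relations with scores that passed numbered 23, against 16 with scores taken as medians and 16 with quantile normalization. With quantile normalization Vegfa (permutation adjusted p = 0.0508), Flt4 (0.292) and Nrp2 (0.159) no longer passed with the endothelial score. Nor did Nrp2 with macrophage (0.0789) or Vegfc with hypoxia (0.213), macrophage (0.292) and muscle (0.159). Nrp2 with the endothelial score also missed 0.05 with scores as medians (0.0860). Signs turned for Pgf with the endothelial score as a median (0.020), and with quantile normalization for Pgf with muscle (-0.41) and Flt4 with macrophage (-0.16). For values that turned, the cause was not tested. Depth limits Pgf and Vegfc.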
